A study of Chlamydomonas reinhardtii with 12 samples.

Results

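In the green alga Chlamydomonas reinhardtii, 25 genes had sequencing counts in cultures grown for 24 h and almost none after 14 days in the same medium. They were chosen from the counts themselves, as IDs with at most 3 counts in at least 5 of the 6 libraries from 14-day cultures and at least 20 counts in at least 5 of the 6 libraries from 24 h cultures. Of the 17741 IDs in the count table, 12213 met the condition on the young cultures, 1930 met the condition on the old cultures, and 26 met both. Cre12.g546550 met both but was left out by name, which gave the 25 genes. Cre12.g546600 was left out by name as well and did not meet the condition on the old cultures. The drop between the ages is therefore how the genes were found and is given below as a description, without a test. Read counts from whole cultures cannot tell apart fewer cells that express a gene and less of its RNA in each cell.

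The study crossed genotype with culture age. Wild-type cells and cells of the mutant vip1-1, which the series text describes as lacking inositol pyrophosphates, grew in liquid TAP medium at 25 °C and 50 μmol of photons per square metre per second. Cultures sampled at 24 h are the controls and those sampled at 14 days are the nutritional stress cultures, so culture age and nutrient state changed together. The labels give CC-1690 as the strain of every sample, do not say whether vip1-1 is a single clone, and name 3 biological replicates in each of the 4 groups. The p-values below measure the spread between these libraries.

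Inositol pyrophosphates are small signalling molecules that carry diphosphate groups on an inositol ring. Enzymes of the VIP family make some of them, and in yeast and plants they are tied to the sensing of phosphate and energy. In an ageing batch culture the cells use up nutrients, divide less and shade each other, and messages needed for growth or for the use of a nutrient that is gone often decline. The files give gene IDs alone. The reference table matched all 25 IDs but gave no name or function for any of them, so the genes are described by ID, level, pattern and place.

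The total count ranged from 9749837 to 28833327 per library. In wild-type control library 1, 71.0% of the counts fell on 6 very abundant features, which left 2829344 counts for all other genes. The same features took 66.5% in wild-type stress library 2, 53.3% in wild-type stress library 3 and 46.9% in vip1-1 stress library 3. The share ran from 1.23% to 25.998% in the other stress libraries and from 0.561% to 14.6% in the other control libraries. The maximum of 3 raw counts under stress is easier to meet where these features leave few counts. CPM below means counts scaled to a common library size by TMM (trimmed mean of M values), which allows for such features. A count of 3, the least taken as a measurable level, corresponds to 0.892 CPM in wild-type control library 1 and to between 0.0769 and 0.370 CPM in the other 11 libraries.

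Many values of exactly 0 were not what sampling of reads would give. For each library, genes were taken for which the lower of the 2 other libraries of its group predicted 20 to 50 counts. In vip1-1 stress library 1, 404 of 1431 such genes were listed at 0 (28.2%), and 3 of them had 1 to 3 counts. The share at 0 was 8.57% in wild-type control library 1 (324 of 3779 genes) and 8.26% in wild-type control library 2 (121 of 1465 genes). In the other 9 libraries it lay between 0.314% and 2.62%. Every 0 below is given as the table lists it, and how these zeros arose was not tested.

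**Figure D1:**
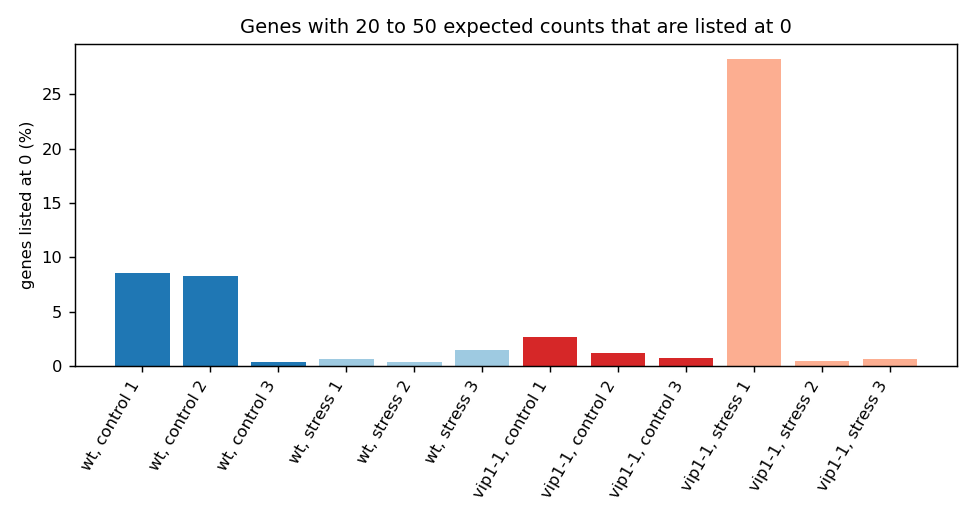
Share of genes listed at 0 (%, vertical axis) among genes with 20 to 50 expected counts, for each of the 12 libraries (bars, coloured by group). The bar of vip1-1 stress library 1 reaches 28.2%, wild-type control libraries 1 and 2 reach 8.57% and 8.26%, and the other 9 libraries stay at 2.62% or below.

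Summed over the 25 genes, the wild-type control libraries 1 to 3 held 256, 312 and 276 CPM. The vip1-1 control libraries held 300, 336 and 530 CPM. The sum under stress was 0.993, 0.740 and 11.6 CPM in wild-type and 0.0585, 3.47 and 0.693 CPM in vip1-1. The highest stress sum, in wild-type stress library 3, came mostly from Cre03.g207800.

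Per length, the genes covered a wide range of levels in the young cultures. The mean deposited FPKM (fragment counts scaled to transcript length and library total) over the 6 control libraries ran from 0.158 to 44.1, with a median of 1.94. The median over all 12213 IDs that met the control condition was 4.97 FPKM, and 10 of the 25 genes lay above it. In 7 genes the mean was at least 10 FPKM, in 12 it was between 1 and 10, and in 6 it was below 1. The FPKM values are scaled to the whole library, the 6 abundant features included, so they are low throughout wild-type control library 1. These features took at least 9.32% of the counts in each wild-type control library and at most 4.85% in the vip1-1 controls. FPKM means are therefore lowered more in wild-type and are given below as levels, not as genotype differences.

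The gene with the highest level per length was Cre10.g452250. It had 112, 324 and 1658 counts in the wild-type controls and 1552, 2887 and 7325 in the vip1-1 controls. Under stress its counts were 0, 0 and 2 in wild-type cells and 0, 6 and 0 in vip1-1. All 6 control libraries were thus far above all 6 stress libraries, and the control libraries themselves differed widely. Its control level was 16.7 ± 15.6 FPKM in wild-type and 71.6 ± 56.1 FPKM in vip1-1 (SD, n = 3 each).

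Cre09.g398450 came next in level per length, at 15.7 ± 15.1 FPKM in wild-type control and 39.3 ± 38.5 FPKM in vip1-1 control (SD, n = 3 each). Its counts were 37, 235 and 976 in the wild-type controls, 467, 729 and 2841 in the vip1-1 controls, and 0 in all 6 stress libraries. Taking 3 counts in each stress library as the floor, its mean control CPM was at least 77.4-fold higher than under stress in wild-type and at least 258-fold higher in vip1-1. Without control library 3 they were 51.1-fold in wild-type and 112-fold in vip1-1. These bounds, like those that follow, grow with depth and level and are not a ranking of the drop.

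Cre06.g280750 had 90, 395 and 397 counts in the wild-type controls, 225, 310 and 147 in the vip1-1 controls and 0 in every stress library. Its bounds were at least 84.9-fold in wild-type and at least 43.3-fold in vip1-1. Cre16.g661750 was likewise at 0 in all 6 stress libraries, whereas its controls had 167, 490 and 186 counts in wild-type cells and 1085, 1678 and 962 in the mutant. Its bounds were at least 112-fold and at least 235-fold.

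Cre16.g661850 had 135, 648 and 352 counts in the wild-type controls and 1618, 2118 and 1312 in the vip1-1 controls. Its stress counts were 0 in all libraries but vip1-1 stress library 3, which had 3. Cre09.g403071 had 104, 599 and 404 counts in the wild-type controls, 1108, 1382 and 319 in the vip1-1 controls, and a single stress value above 0, of 3 counts in wild-type stress library 1. Both genes were thus lowest under stress in all 6 libraries.

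Another 3 genes and Cre03.g207800 complete the 10 with the highest level per length. Cre12.g488450 had 47, 319 and 885 counts in the wild-type controls and 203, 365 and 605 in the vip1-1 controls, against 7 counts in wild-type stress library 3, 2 in vip1-1 stress library 2 and 0 in the other 4 stress libraries. Cre10.g463350 had 39, 122 and 388 control counts in wild-type, 71, 124 and 536 in vip1-1 and 0 in all 6 stress libraries, with bounds of at least 42.0-fold and at least 46.6-fold, the latter 18.2-fold without vip1-1 control library 3. Cre12.g554100 had 12, 42 and 369 control counts in wild-type cells and 99, 189 and 1016 in vip1-1, and 2, 2 and 0 against 0, 11 and 3 under stress. Its 11 counts in vip1-1 stress library 2 were close to the 12 counts of wild-type control library 1, a library with far fewer usable counts.

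Cre03.g207800 was an exception to the common pattern. It had 49, 310 and 279 counts in the wild-type controls, 875, 1204 and 981 in the vip1-1 controls, and 0 in all 3 vip1-1 stress libraries. In wild-type stress it had 2, 0 and 87 counts. The 87 counts in wild-type stress library 3 amount to 8.16 CPM, near the 10.2 CPM of wild-type control library 3. The description as lost in old cultures thus did not hold for this gene in 1 of the 3 wild-type stress libraries. Cre14.g623125, a gene of much lower level, was also near its control level in wild-type stress library 3. It had 12 counts or 1.13 CPM there, against 0, 1.61 and 1.28 CPM in the wild-type controls.

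**Figure D2:**
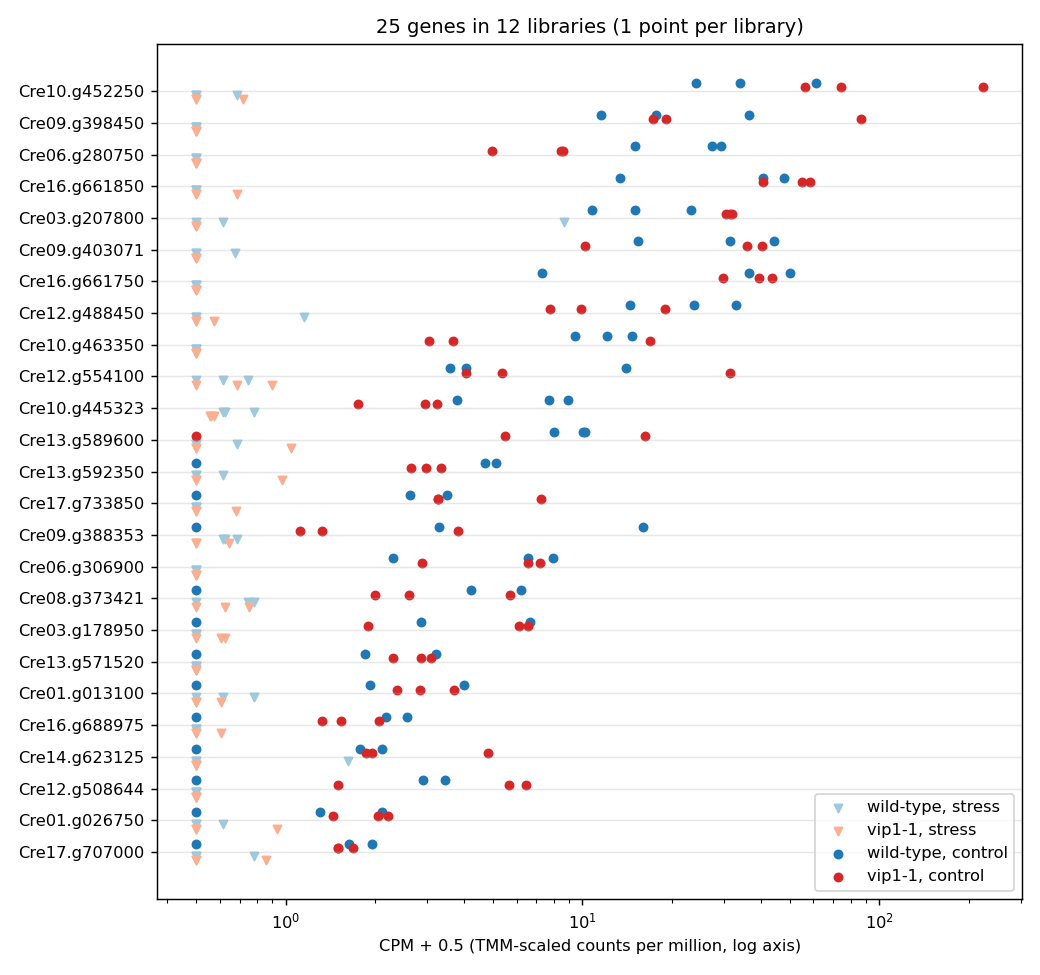
TMM-scaled CPM + 0.5 (log axis) of the 25 genes, 1 point per library (circles, control; triangles, stress; blue, wild-type; red, vip1-1), with genes ordered by mean control FPKM from 44.1 at the top to 0.158 at the bottom. Stress points gather at the left end, where 108 of 150 values are 0, and Cre03.g207800 has 1 wild-type stress point at 8.16 CPM. Blue circles at the left end are 12 genes listed at 0 in wild-type control library 1.

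Over the 25 genes and 6 stress libraries, 108 of 150 values were 0, 30 were 1 to 3 counts and 12 were higher. There were 7 genes at 0 in all 6 stress libraries, and 12 genes had 1 stress library above 3 counts. Of the 7, Cre09.g398450, Cre06.g280750, Cre16.g661750 and Cre10.g463350 are described above. Cre06.g306900 had 25, 83 and 49 counts in the wild-type controls and 169, 262 and 78 in the vip1-1 controls, with bounds of at least 18.5-fold and at least 32.0-fold. Cre12.g508644 had 0, 33 and 80 counts in the wild-type controls and 166, 202 and 33 in the vip1-1 controls. Cre13.g571520 had 0, 37 and 37 against 66, 101 and 59. In these last 2 genes the drop was seen from 5 of the 6 control libraries. Their bounds were at least 6.47-fold in wild-type and 25.7-fold in vip1-1 for Cre12.g508644, and 4.91-fold and 14.3-fold for Cre13.g571520. The wild-type bound of Cre13.g571520 was 2.46-fold without wild-type control library 2. Of the 12 higher values, 9 were in vip1-1 stress library 2 and 3 in wild-type stress library 3. In vip1-1 stress library 2 the highest were 15 counts of Cre13.g589600, 13 of Cre13.g592350 and 12 of Cre01.g026750. In wild-type stress library 3 they were the 87 counts of Cre03.g207800, 12 of Cre14.g623125 and 7 of Cre12.g488450. The vip1-1 stress library 2 had the most counts of the stress libraries, 19804077, and 14 of the 25 genes had a count there. In vip1-1 stress library 1, the library with the many zeros, 1 gene had a count.

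The genes of lower level were measured less well in the young cultures. In all, 15 genes had 1 control library below 20 counts, which was wild-type control library 1 in 14 of them and vip1-1 control library 1 in Cre13.g589600. In wild-type control library 1, 12 genes were listed at 0. Wild-type control library 2 had 20 to 84 counts for these 12, which alone predicts 4.91 to 20.6 counts in library 1. The lower of both other wild-type control libraries, the measure of the zero check, predicts fewer counts for some of these genes. Cre13.g589600 was listed at 0 in vip1-1 control library 1 but had 616 and 164 counts in vip1-1 control libraries 2 and 3, and 32, 103 and 264 in wild-type. For these 13 genes 1 young library was therefore listed at the same value as the old ones. Cre08.g373421, for example, had 0, 51 and 155 counts in the wild-type controls and 42, 82 and 171 in the vip1-1 controls. Cre03.g178950 had 0, 84 and 64 against 169, 220 and 46. In raw counts, the other 5 control libraries of all 13 genes stood above every stress library.

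The genes nearest to the thresholds show how much the list depends on them. Just inside, Cre17.g707000 had 0, 20 and 31 counts in the wild-type controls and 33, 39 and 33 in the vip1-1 controls, with 0, 0 and 3 against 0, 10 and 0 under stress. Cre01.g026750 and Cre14.g623125 had a fifth-highest control count of 22 each. Just outside, Cre17.g734125 had 145, 715 and 1061 counts in the wild-type controls and 1717, 2708 and 2919 in the vip1-1 controls, and missed only because 2 stress libraries had 4 counts instead of 3. Cre09.g398400 missed with stress counts of 4, 0 and 0 in wild-type and 0, 7 and 3 in vip1-1. Cre03.g146047 missed with 0, 0 and 2 against 4, 9 and 3 stress counts. The genes named just outside all missed on the stress side, where counts on both sides of the line differed little. Their control counts were mostly well above those of the genes named just inside.

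Asked of each genotype alone, 3 of 3 libraries past each threshold were found for 26 IDs in wild-type and 28 in vip1-1, again leaving out Cre12.g546550 and Cre12.g546600 by name. They shared 7 IDs, 26.9% of the wild-type list and 25.0% of the vip1-1 list. Being on 1 list alone does not show a difference between genotypes. The 0 values of single libraries can move an ID off a list in control and onto a list under stress. How far they set the overlap was not tested.

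The genotypes were then compared in the young cultures, a contrast the choice of genes did not use, although the minimum of 20 counts in 5 of 6 control libraries keeps out genes absent from 1 genotype. With an adjusted p under 0.05 as the threshold, 0 of the 25 genes were called between vip1-1 and wild-type (quasi-likelihood test of edgeR, adjusted by Benjamini-Hochberg over 15286 genes), where 0.255% of all genes tested were called. At an unadjusted p under 0.05 there were 3 genes, Cre06.g280750, Cre10.g445323 and Cre10.g452250, where the share over all genes was 6.5%. DESeq2 called 1 of the 25 genes, Cre06.g280750, and 1.63% of all genes with an adjusted p. Limma voom with sample weights called 2.27% of all genes tested and 4 of the 25, which were Cre06.g280750, Cre10.g445323, Cre12.g488450 and Cre10.g463350, all lower in vip1-1. All 25 genes passed the filter on low counts.

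Their log2 fold changes (vip1-1 minus wild-type) ran from -1.97 to 1.58, and 15 were above 0 and 10 below. The share above 0 was thus 60%, against 58.5% of all genes tested. The median was 0.29 over the 25 genes and 0.11 over all genes tested. With the replicate number as a block the medians were 0.71 and 0.14 over all 12 libraries, and 0.65 and 0.17 over the control libraries alone. Without wild-type control library 1, which lists 12 of the 25 genes at 0, they were 0.06 and 0.05. The median standard error was 1.16 for the 25 genes and 0.45 for all genes. An approximate 95% interval of median width thus reached 2.28 to either side on the log2 scale. Smaller differences were mostly not detectable for a single gene at this depth and spread. That width leaves out the adjustment over 15286 genes, so larger differences could also stay uncalled. The absence of calls therefore sets no upper limit on the differences.

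**Figure D3:**
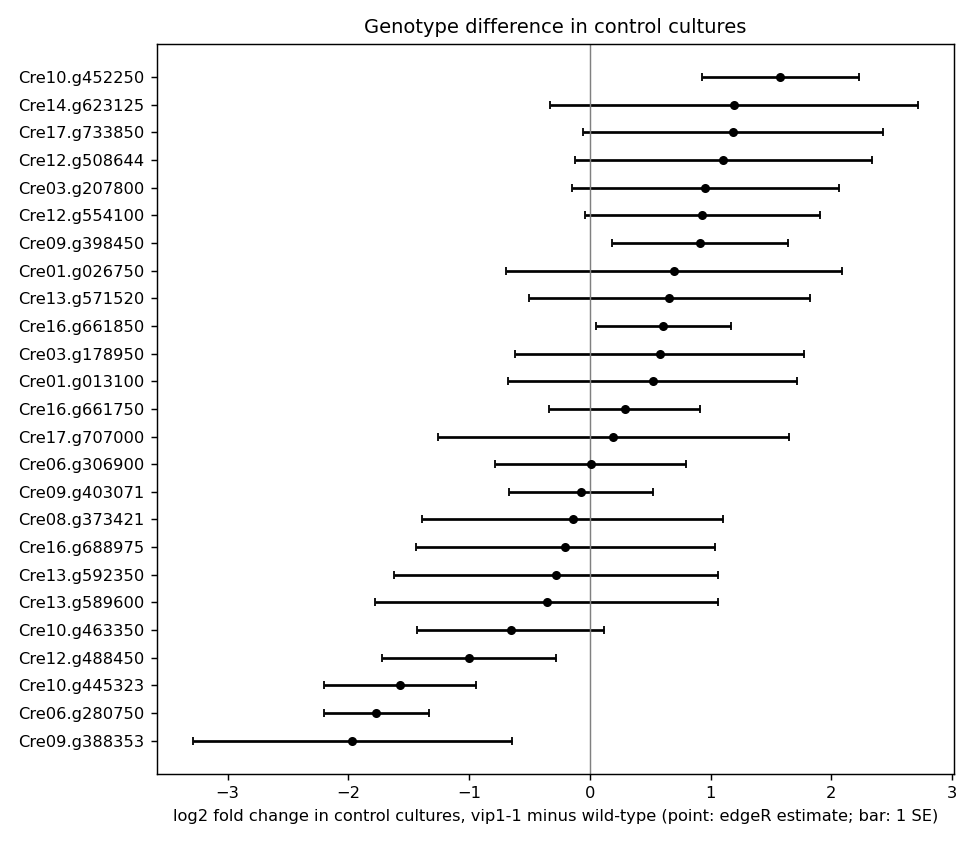
Log2 fold change in control cultures (vip1-1 minus wild-type, horizontal axis) for each of the 25 genes, with bars of 1 standard error from edgeR. The points run from -1.97 to 1.58 on both sides of 0, and none was called at an adjusted p under 0.05.

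Cre06.g280750 was the gene closest to a call. Its wild-type controls stood at 26.8, 28.9 and 14.6 CPM and its vip1-1 controls at 8.07, 7.94 and 4.48 CPM. Every wild-type library was above every vip1-1 library, and the difference was also close to constant between same-numbered libraries, at -1.67, -1.80 and -1.60 on the log2(CPM + 0.5) scale. The fitted difference was -1.77 on the log2 scale with SE 0.44 (adjusted p = 0.284 by the quasi-likelihood test of edgeR). It passed the threshold with DESeq2 (adjusted p = 0.0122), with limma voom and sample weights (adjusted p = 0.00141) and in edgeR without wild-type control library 3 (adjusted p = 0.0431), while over all 18 alternatives the adjusted p ran from 0.00141 to 0.808.

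Cre10.g445323 was the other gene with all wild-type controls above all vip1-1 controls. It had 3.27, 8.47 and 7.23 CPM in wild-type and 2.73, 2.46 and 1.25 CPM in vip1-1. The estimate was -1.57 on the log2 scale with SE 0.63 (adjusted p = 0.631 by edgeR). The lowest wild-type library, number 1, rests on 11 counts. Over all genes tested, wild-type controls stood wholly above vip1-1 controls in 4.36% of genes, against these 2 of 25.

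Cre03.g207800 was the single gene with all vip1-1 controls above all wild-type controls, an arrangement found in 8.18% of all genes tested. The vip1-1 controls lay close together at 31.4, 30.9 and 29.9 CPM, and the wild-type controls at 14.6, 22.6 and 10.2 CPM. The estimate was 0.96 on the log2 scale with SE 1.11 (adjusted p = 0.957 by edgeR).

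In Cre10.g452250 and Cre12.g488450 the groups overlapped. Cre10.g452250 had 33.3, 23.7 and 60.9 CPM in wild-type and 55.7, 74.0 and 223 CPM in vip1-1. The estimate was 1.58 on the log2 scale with SE 0.65 (adjusted p = 0.670 by edgeR), and 0.72 without vip1-1 control library 3. It was higher in vip1-1 at each of the 3 library numbers. Cre12.g488450 had 14.0, 23.3 and 32.5 CPM in wild-type and 7.28, 9.35 and 18.4 CPM in vip1-1. It was lower in vip1-1 at each number, by an estimate of -1.003 on the log2 scale with SE 0.72 (adjusted p = 0.937 by edgeR).

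Cre09.g388353 had the lowest estimate, -1.97 with SE 1.32 (adjusted p = 0.924 by edgeR), from 0, 2.78 and 15.5 CPM in wild-type and 0.825, 0.615 and 3.32 CPM in vip1-1. It came to 0.064 without wild-type control library 3. Cre14.g623125, Cre17.g733850 and Cre12.g508644 had estimates of 1.19, 1.19 and 1.11 with standard errors of 1.52, 1.24 and 1.23. All 3 were listed at 0 in wild-type control library 1, and without it the estimates were 0.71, 0.67 and 0.61.

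Taken number by number, 17 of the 25 genes were higher in vip1-1 between the control libraries numbered 1, 10 between those numbered 2 and 13 between those numbered 3. The shares over all genes tested were 59.0%, 55.5% and 51.6%. The median differences were 1.08, -0.10 and 0.14 on the log2(CPM + 0.5) scale, against 0.21, 0.08 and 0.02 over all genes tested. The excess in vip1-1 was thus seen between the libraries numbered 1, where wild-type lists 12 of the genes at 0. Of the 25 genes, 8 differed in the same direction at all 3 numbers, a share that was not computed over all genes.

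The control libraries of a group differed from each other more in these genes than in most. The median SD of log2(CPM + 0.5) between the wild-type controls was 1.07 over the 25 genes and 0.55 over all genes tested. Between the vip1-1 controls it was 0.67 and 0.32. The low counts of many of the genes enter these values.

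Libraries of the same number were also compared across the genotypes. In control library 3 compared with control library 2, 7 genes were higher in both genotypes and 10 were lower in both, so 68.0% differed the same way, against 69.0% of all genes tested. Library 3 was picked for this description after its values had been seen. The differences correlated at Pearson's r = 0.67 across the 25 genes and 0.50 across all genes tested. These r values are across genes, which are not independent replicates, and all points share the same 4 libraries.

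The genes higher in both libraries numbered 3 differed in how far they rose. Cre12.g554100 was at 3.57, 3.07 and 13.5 CPM in the wild-type controls and at 3.55, 4.84 and 30.9 CPM in the vip1-1 controls. Library 3 was thus 4.42 times library 2 in wild-type and 6.39 times in vip1-1. Cre09.g398450 (11.0, 17.2 and 35.8 CPM; 16.8, 18.7 and 86.5 CPM), Cre10.g452250 and Cre10.g463350 (11.6, 8.91 and 14.2 CPM; 2.55, 3.18 and 16.3 CPM) were also highest in library 3 of both genotypes.

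Other genes went the opposite way between the same libraries. Cre09.g403071 stood at 30.9, 43.8 and 14.8 CPM in the wild-type controls and at 39.8, 35.4 and 9.72 CPM in the vip1-1 controls, so that library 3 had 0.339 and 0.274 times the level of library 2. Cre06.g306900 was at 7.44, 6.06 and 1.80 CPM in wild-type and 6.06, 6.71 and 2.38 CPM in vip1-1. Cre16.g661750 was low in library 3 mostly in wild-type, at 49.7, 35.8 and 6.83 CPM, against 38.9, 43.0 and 29.3 CPM in vip1-1. The genes that end at the same near-zero level in old cultures thus did not move together among the young ones.

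**Figure D4:**
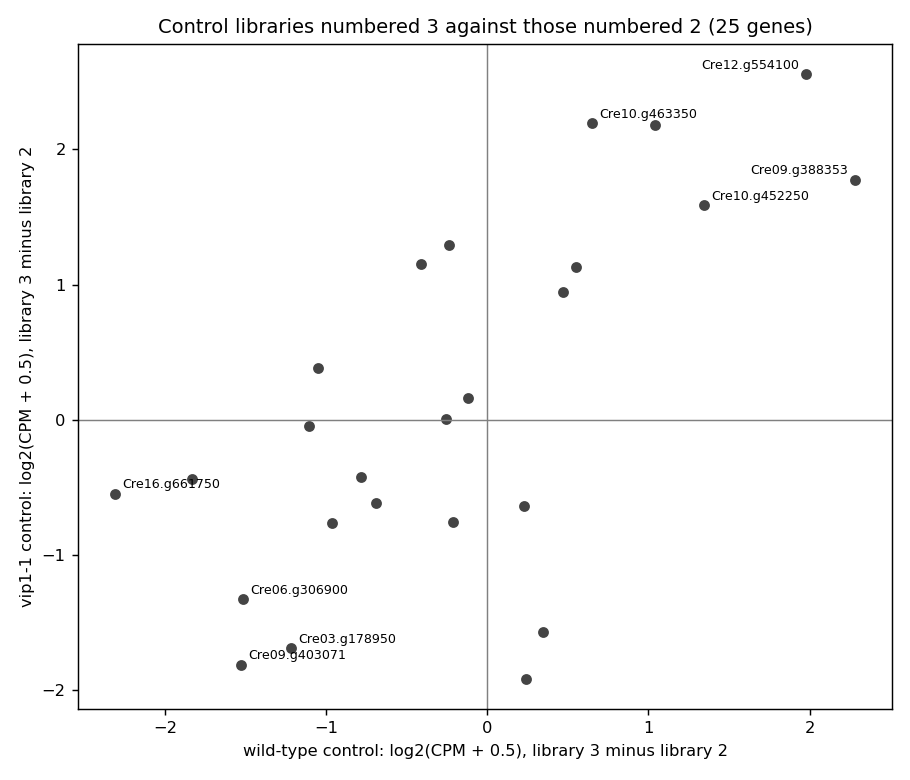
Difference between control libraries numbered 3 and 2 on the log2(CPM + 0.5) scale, in wild-type (horizontal axis) and vip1-1 (vertical axis), 1 point per gene for 25 genes. In the upper right lie 7 points and 10 in the lower left, with Cre12.g554100 and Cre09.g403071 near the opposite ends.

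The 25 genes lay on 11 chromosomes in the order of the reference table. One pair of them had fewer than 6 genes in between, Cre16.g661750 and Cre16.g661850 on chromosome 16, which have 1 gene between them. The closest other pair was 55 genes apart. In the young cultures the pair had much the same profile. Cre16.g661850 was at 40.2, 47.3 and 12.9 CPM in the wild-type controls and 58.0, 54.3 and 40.0 CPM in vip1-1, and both genes were lowest in wild-type control library 3. Their log2(CPM + 0.5) values correlated at r = 0.94 over the 6 control libraries, given as a description.

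The gene between the pair did not share the drop. Cre16.g661800 had 0, 292 and 488 counts in the wild-type controls, 412, 567 and 524 in the vip1-1 controls, and 299, 169, 141, 322, 467 and 282 under stress. Its 0 in wild-type control library 1 stands beside 21.3 and 17.9 CPM in wild-type control libraries 2 and 3. The gene lay above the range of expected counts used in the zero check, so its 0 was not among those counted there. The ratio of the pair's counts ranged from 0.808 to 1.89 over the control libraries. Without sequences, reads shared between similar copies could not be checked, and the strand setting of the counts is not given in the sources used here, so overlapping genes cannot be told apart.

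On chromosome 9, both genes next to Cre09.g398450 showed its pattern, although neither passed the thresholds. Cre09.g398500, named here after its values had been seen, had 37, 126 and 1273 counts in the wild-type controls and 614, 804 and 2948 in vip1-1, against 0, 0 and 0 and 0, 10 and 7 under stress. Cre09.g398400, on the other side, had 95, 483 and 1426 counts in the wild-type controls and 836, 1490 and 3937 in the vip1-1 controls. In all 3 genes control library 3 was the highest in both genotypes, at 46.7, 35.8 and 52.3 CPM in wild-type and 89.8, 86.5 and 120 CPM in vip1-1 for Cre09.g398500, Cre09.g398450 and Cre09.g398400. The next gene along, Cre09.g398350, had 118, 47 and 36 counts in the wild-type stress cultures and 22, 283 and 119 in those of vip1-1, so the run ended there.

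**Figure D5:**
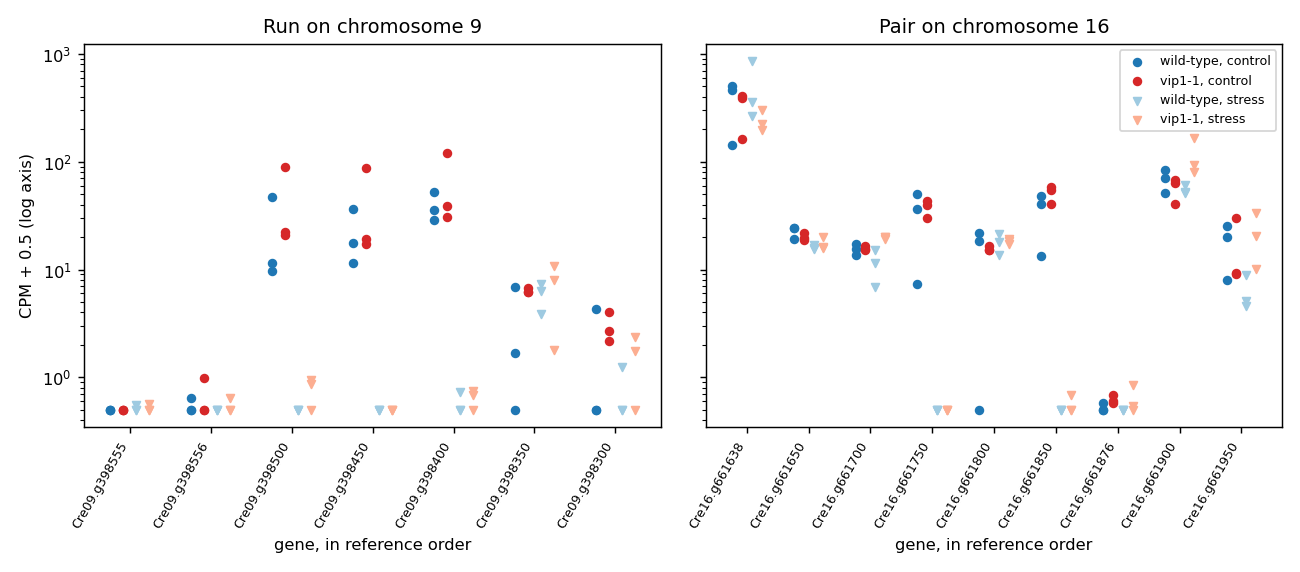
TMM-scaled CPM + 0.5 (log axis) of neighbouring genes in reference order around Cre09.g398450 (left) and around the pair Cre16.g661750 and Cre16.g661850 (right), 1 point per library (circles, control; triangles, stress). On the left 3 adjacent genes drop under stress, and on the right the 2 genes that drop have Cre16.g661800 between them, which stays near its control level.

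Most genes next to the 25 did not share their drop. Of 50 neighbouring places, 37 held a gene with at least 20 counts in at least 5 control libraries. Their median difference between stress and control was 0.07 on the log2(CPM + 0.5) scale, against -0.01 over the neighbours of all genes with such counts. A difference of -1 or less was found for 24.3% of them (9 of 37), against 15.3% of the neighbours of all such genes. A next gene with such control counts and at most 10 counts in at least 5 stress libraries was found beside 2 of the 25 genes (8%), against 1.11% of all genes with such control counts. One was Cre09.g398450 and the other Cre09.g388353, whose neighbour Cre09.g388355, named after its values had been seen, had a median of 33 control and 7 stress counts.

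The length that the deposited values imply, from the ratio of count to FPKM, was 0.284 to 3.47 times the median over IDs that met the control condition, with a median of 0.810 times. The shortest was Cre06.g280750 and the longest Cre12.g508644. Cre12.g508644, Cre17.g707000 and Cre01.g026750, the 3 genes with the lowest control FPKM, were the 3 longest, at 3.47, 2.74 and 2.38 times the median. A rule on raw counts admits a long gene at a lower level per length.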

How the data were processed

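For 12 libraries of polyadenylated RNA, read counts and FPKM values of 17741 gene IDs were used as the authors deposited them, unchanged. HISAT2 and StringTie are named per the submitters' processing notes, without versions; the genome build, annotation and strand setting are not given in the sources used here. Libraries were grouped by title and columns tied to them by the short sample names in the labels. The genes and the lists were chosen with earlier results of these data known.

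The counts were fitted with edgeR 4.0.16 in R 4.3.3. The filter filterByExpr by group left 15286 IDs, libraries were scaled with TMM, and group means over all 12 libraries were tested by quasi-likelihood with robust dispersions, for vip1-1 against wild-type in control. Calls required a Benjamini-Hochberg adjusted p under 0.05. The standard error was taken as the absolute log2 fold change over the square root of F. A fold against a group at 0 in all libraries was computed against 3 counts per library. Log2 values for single libraries used CPM + 0.5. CPM and the zero check used TMM-scaled sizes. Alternatives used DESeq2 1.42.0 and limma 3.58.1, the latter also on log2 of deposited FPKM.

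Same-numbered control libraries deviated together from their group means (correlations 0.16, 0.19 and 0.40 across genes for numbers 1 to 3). Their numbers were therefore compared as pairs in the descriptions, from this check alone. Differently numbered libraries were not correlated, and the labels give no pairing, so the check does not show that the numbers mark pairs. The main test used group means without pairing, and a replicate block was an alternative. The text names genes with the highest mean control FPKM (10), the largest and smallest genotype estimates (4 each), genes at the thresholds and neighbouring genes. The reference table (Chlamydomonas_reinhardtii_v5.5) matched 17738 IDs and served for gene order only. No sequences were used here. The floor of 3 counts covers counting error only.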

Additional observations from a re-analysis of the deposited data

How the results depend on the processing

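The count of the 25 genes called between genotypes in control was 0, and it stayed 0 under 15 of 18 alternatives; it was 1 with DESeq2 and 4 with limma voom with sample weights, and 0 to 1 in the fits without 1 control library. With the replicate number as a block it was 0 over all 12 libraries and 0 over the control libraries alone, so the replicate block changed no call among the 25 genes. The count over all genes tested was 39 and moved more: 25 with library totals alone, 274 with DESeq2, 347 with voom, 126 and 85 with FPKM at pseudocounts of 0.5 and 0.1, 8 with only the control libraries, 12 with the replicate block over all 12 libraries and 0 with the block over the control libraries (1335 at an unadjusted p under 0.05), 698 without both control libraries numbered 3 (added after seeing the data), and 9 to 855 without 1 control library. The median log2 fold change of the 25 genes, 0.29, was 0.90 with library totals alone (0.69 over all genes), 1.09 with FPKM at a pseudocount of 0.1 (0.90 over all genes), 0.71 with the replicate block over all 12 libraries, and 0.06 to 0.57 without 1 library. Between 14 and 20 of the 25 genes were above 0 under all 18 alternatives. The estimate of Cre09.g388353 ran from -3.10 (without vip1-1 control replicate 3) to 0.064 (without wild-type control replicate 3), where its sign turned; the other 7 genes named for their estimates kept their sign. The number of genes chosen, 25, was 48 and 10 with control minimums of 10 and 50 counts, 12 and 90 with stress maximums of 0 and 10 counts, and 7 with 6 of 6 libraries in both conditions. With thresholds of 0.2 and 1 CPM in place of raw counts it was 28, of which 19 were among the 25. It was 25 to 66 without 1 library, and 75 without wild-type control libraries 1 and 2 and vip1-1 stress library 1, all added after seeing the data. These counts still let 1 remaining library of each condition miss its threshold, so none of the 25 genes could be lost and the number could not fall. Of the 25, 13 had at most 3 counts in all 5 stress libraries other than vip1-1 stress library 1. The cause of these shifts was not tested, apart from the thresholds, which set the length of the list by construction. Depth was lowest in wild-type control library 1, where 3 counts correspond to 0.892 CPM.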
